A study of Homo sapiens with 8 samples.

Results

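Replication-dependent histone genes were followed through a ribosome profiling (Ribo-seq) series of OVCAR3, an established line of human ovarian cancer cells. Members were chosen by name alone: every region of the count files whose transcripts map to a symbol of the HIST1H, HIST2H, HIST3H or HIST4H series (now H1-1 to H1-6, H2AC, H2BC, H3C and H4C genes, with H3-4 and H3-7) was taken, and the rule uses no measured value. The rule found 72 of 20165 regions, for 66 gene symbols: 6 regions of H1, 17 of H2A, 20 of H2B, 16 of H3 and 13 of H4. By position, 57 lie in the large histone cluster of chromosome 6, 11 in a cluster on the long arm of chromosome 1, 3 farther out on the same arm and 1 on chromosome 12.

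In one experiment, cells carried a lentiviral shRNA against their own RACK1, a protein of the small ribosomal subunit, and an inducible HA-tagged RACK1, either wild type (RACK1-WT) or mutated at its sites of mono-ADP-ribosylation (RACK1-Mut), and both groups were kept in 1 µg/ml doxycycline for 48 h. In the other, the line was transfected for 48 h with siRNA at 30 nM, either non-targeting (siControl) or directed at OARD1, the gene of the ADP-ribose hydrolase TARG1 (siTARG1). Each of the 4 groups has 2 libraries, and the study's methods describe independent biological samples. The RACK1 cells are selected, stably transduced populations, and footprints do not separate the cell's own RACK1 from the tagged one.

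Histone proteins package DNA into nucleosomes: H2A, H2B, H3 and H4 form the core that DNA wraps around, and H1 binds the linker between cores. Most of this protein is needed while DNA is copied, so the replication-dependent genes are expressed chiefly in S phase. They lie in clusters of many copies, lack introns, and give mRNAs that end in a conserved stem-loop bound by SLBP instead of a poly(A) tail. Replication-independent variants, such as H3-3A and H2AZ1, are encoded elsewhere by mostly polyadenylated mRNAs. A footprint count on a coding sequence follows both the amount of mRNA and how heavily it is translated. RNA-seq was not analysed here, and in a bulk lysate fewer S phase cells and fewer footprints per cell cannot be told apart.

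The stem-loop is shown first, because it sets these mRNAs apart in sequence. The search asked for a stem of 6 base pairs and a loop of 4 bases that starts with TTT, within 100 bases after the stop codon. A match was found in 66 of the 72 regions (91.667%) and in 41 of 18921 other regions (0.217%). The other regions include 11 replication-independent variants, of which 1 (H2AX) had a match. In the member regions the hairpin began between 23 and 68 bases after the stop codon. All 54 hairpins of H1, H2A, H2B and H3 regions had the stem GGCTCT, and all 12 of H4 regions had GGCCCT, so a single base pair of the stem separates H4 from the other types. These sequences, on the sense strand of GRCh37 with the stem in capitals, are the forms carried by genes described below.
H1-3, H3C1, H3C10 and H3C11: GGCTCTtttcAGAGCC
H3C8 and H2BC12: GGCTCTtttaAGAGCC
H2AC20: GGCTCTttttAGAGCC
H4C3 and H4C5: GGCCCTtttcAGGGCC
H4C14 and H4C15: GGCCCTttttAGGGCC
The form with the loop TTTC and the GGCTCT stem was the most frequent, in 41 regions. No match was found in H2AC11, H2AC15, H2BC10, H3C6 or H4C13.

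Copies of a histone gene encode nearly the same protein from more or less different bases, and this decides which gene a short footprint can be assigned to. The first 30 coding bases of 6 H3 genes are shown with each base that differs from H3C14 in capitals. They include the 4 H3 genes called in the siTARG1 comparison below.
H3C14, chr1:149812700-149812729: atggcccgtactaagcagactgctcgcaag
H3C15, chr1:149824217-149824246: atggcccgtactaagcagactgctcgcaag
H3C10, chr6:27777852-27777881: atggcGcgtacGaagcagactgctcgcaag
H3C8, chr6:26271583-26271612: atggcccgCacCaagcagactgcAcgcaag
H3C1, chr6:26020718-26020747: atggcTcgCactaagcaAactgctcgGaag
H3C11, chr6:27840064-27840093: atggcAcgAacAaagcaAacAgctcgcaag
All coordinates of coding bases are on GRCh37, and H3C14, H3C8 and H3C11 are on the minus strand. H3C14 and H3C15 are identical here, whereas H3C11 differs from them at 5 of the 30 bases. The H4 genes show the same kind of difference, with capitals marking bases that differ from H4C14.
H4C14, chr1:149804249-149804278: atgtccggcagaggaaagggcggaaaaggc
H4C5, chr6:26204873-26204902: atgtcTggTCgCggCaaAggcggaaaGggA
H4C3, chr6:26104176-26104205: atgtcTggTCgCggCaaAggcggaaaaggc
H4C11, chr6:27791903-27791932: atgtcTggcCgCggCaaAggcggGaaGggT
H4C15 has the H4C14 window and H4C12 has the H4C11 window. For the linker histones, capitals mark differences from H1-2.
H1-2, chr6:26056627-26056656: atgtccgagactgctcctgccgctcccgct
H1-4, chr6:26156619-26156648: atgtccgagactgcGcctgccgcGcccgct
H1-3, chr6:26235132-26235161: atgtcGgagactgctccACTTgctccTAcC
H1-5, chr6:27835278-27835307: atgtcGgaAacCgctcctgccgAGAcAgcC

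Reads were aligned with many hits allowed, so a footprint that fits several copies is counted at each. Cutting the coding sequences into all stretches of 30 bases, about the length of a footprint, showed how far each gene can be told from the rest. Of the 55 members with at least 100 coding bases in the files, 27 had at least 90% of their 30-mers in no other region, 14 had under 50%, and 6 had none at all. H1-3, H3C1 and H4C3 were distinct over their whole coding sequence. H3C8 was distinct in 97.6% of its 30-mers, H3C10 in 96.3%, H3C11 in 95.3% and H2AC11 in 78.4%. H3C14 and H3C15 held the same counts in all 8 libraries, as did H4C14 and H4C15, so each of these pairs carries 1 measurement entered at both genes. H4C11 and H4C12 shared all their 30-mers, H2AC13 shared 83.9% with H2AC14, H3-7 shared 69.4% with H3C13, and H2BC12 shared 74.8% with H2BC12L, which is not a member. Values of these genes are uncertain as values of a single gene.

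Another 17 regions had fewer than 10 counted coding bases, 15 of them none. Of the 17, 12 are 6 symbols (H2AC6, H2BC4, H2BC5, H2BC6, H2BC11 and H3C6) that the files split over a pair of regions each. H2AC19, H3C4 and H4C8 had no coding bases, and H2AC7 and H2BC15 had 8 and 4. These genes have no footprint level here, and the sums of H2A, H2B, H3 and H4 leave them out. H2BC15 had enough reads on its 4 bases to enter the tests below, where it is 1 of the H2B genes.

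Core promoter sequence also split by type. Of 65 promoter entries for members in RefSeq (GRCh38.p14, 250 bases before to 50 after the start, both strands searched), 67.7% held TATAAA and 86.2% held CCAAT, against 11.5% and 34.6% of all 35116 promoters. CCAAT was in every H1, H2A, H2B and H3 promoter of the table and in 18.2% of H4 promoters. The octamer core TTTGCAT was in 73.3% of H2A and 72.2% of H2B promoters, in none of H1 (6 promoters) and H4 (11), and in 4.5% of all promoters. The 1 match among H3 entries is a second entry of H3C4 with the coordinates of the H2AC7 promoter. H2A and H2B genes often lie head to head, and one motif then falls in the promoters of both. The windows show this for H2AC11 and its neighbour H2BC11 and for H2AC20 and its neighbour H2BC21, each on its own gene's strand (plus for the H2A genes, minus for the H2B genes), with TTTGCAT or its reverse complement in capitals.
H2AC11, chr6:27132824-27132853: tagaatcgcttATGCAAAtaaggtgaagag
H2BC11, chr6:27132823-27132852: tcttcaccttaTTTGCATaagcgattctat
H2AC20, chr1:149886710-149886739: ataaccaccttATGCAAAttagggctccga
H2BC21, chr1:149886709-149886738: cggagccctaaTTTGCATaaggtggttata
These coordinates are on GRCh38.p14. The match describes letters, not binding.

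Coding counts summed to between 3100947 and 6604190 per library. OARD1, the siRNA target, had normalized counts of 121 and 69.1 in siControl and 5.8 and 6.7 in siTARG1, a log2 fold change of -3.94 ± 0.557 (DESeq2 adjusted p = 9.31e-11). RACK1 had 23334 and 23594 in RACK1-WT and 17745 and 17274 in RACK1-Mut (-0.42 ± 0.0601, DESeq2 adjusted p = 1.34e-08). It was also lower in the siRNA experiment, with 12320 and 13029 in siControl against 10037 and 11268 in siTARG1 (-0.25, DESeq2 adjusted p = 0.00297). Markers of ovarian carcinoma epithelium (8 of 8, among them PAX8, EPCAM and KRT8) had footprints in every library, from 11.9 to 2582 CPM per kb of coding sequence. The 8 markers of immune, stromal and endothelial cells with a value stayed at 11.6 or lower, with CD3E and CDH5 at 0. A further endothelial marker that was planned, PECAM1, has no value here. The ranges nearly meet, with WT1 lowest of the first set (from 11.9) and CD68 highest of the second (up to 11.6).

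Histone genes were among the most heavily footprinted genes of the cells. On the scale of CPM per kb, which divides a coding count by the library's total of coding counts and by the coding length, the 55 members had a median level of 1180, beside 11.9 over all regions with a count. Of 18394 regions ranked by mean level, 22 members were in the top 100 and 4 in the top 10, and those 4 were the identical pairs H4C14/H4C15 and H3C14/H3C15, whose level is the sum over both copies. A level of at least 100 was reached by 45 members, and 3 stayed under 1.

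**Figure D1:**
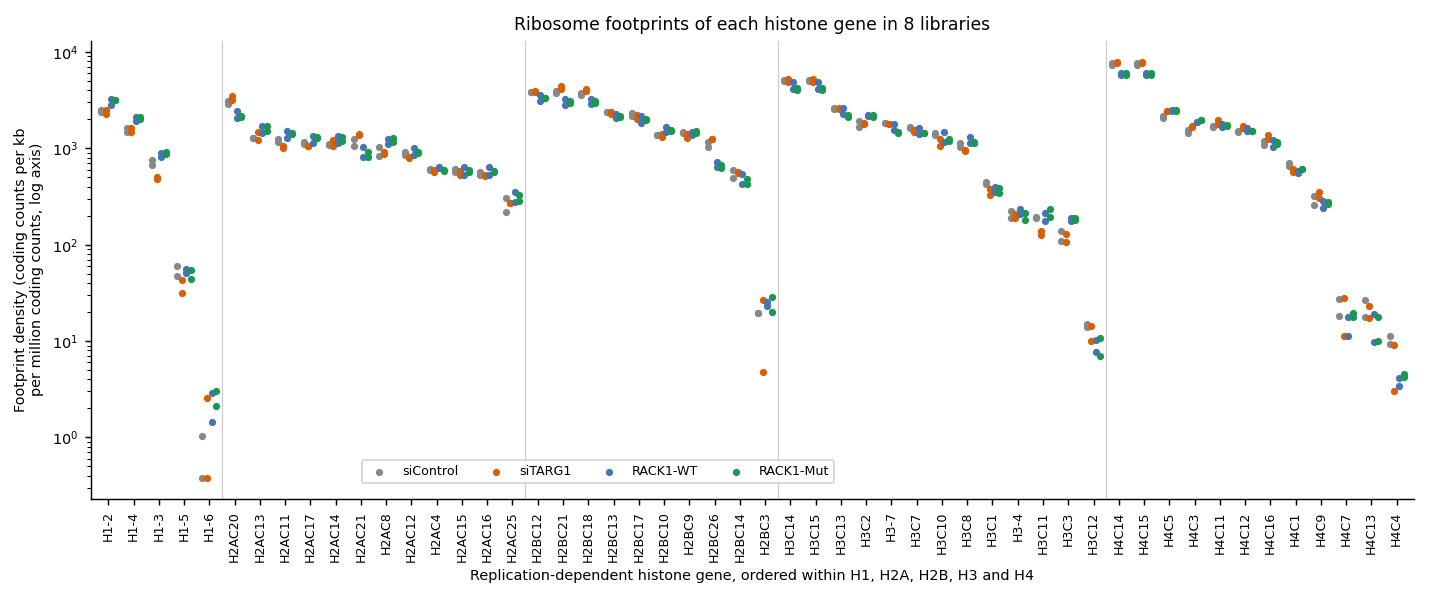
Footprint density (coding counts in CPM per kb of coding sequence, log axis) of the 52 histone genes with a mean of at least 1, by gene within type. Each dot is a library, 2 per group. Every type has genes above 1000. In H1, H2B, H3 and H4 the lowest lie 1 or more orders of magnitude below, whereas the lowest H2A gene plotted, H2AC25, averaged 289.

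Among linker histones, H1-2 led. Its level was 2394 and 2498 in siControl, 2499 and 2266 in siTARG1, 2825 and 3225 in RACK1-WT, and 3209 and 3202 in RACK1-Mut. H1-4 followed at a mean of 1793 over the 8 libraries, H1-3 at 740 and H1-5 at 48.6. The order of these 4 genes was the same in all 8 libraries. H1-6, a testis linker histone, averaged 1.73, and H1-1 had 1 read in each RACK1-WT library and none in the other 6, which allows up to 3 reads in each.

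H2A and H2B form the dimers on either side of the nucleosome. H2AC20 led H2A with a mean level of 2686, followed by H2AC13 (1451), H2AC11 (1265), H2AC17 (1185) and H2AC14 (1181). H2AC17 and H2AC14 lie within the spread of their libraries (1144 ± 41.3 and 1095 ± 15.1 in siControl, 1246 ± 153 and 1251 ± 151 in RACK1-WT, SD, n = 2). H2BC12 (3590), H2BC21 (3546) and H2BC18 (3465) led H2B in an order that turned between groups. In siTARG1, H2BC12 had 3910 and 3806, below the 4421 and 4178 of H2BC21, whereas in RACK1-Mut it had 3329 and 3303, above the 2953 and 3121 of H2BC21. In siControl the libraries of H2BC12 (3830 and 3843) lay within the range of H2BC21 (3715 and 3929). H2BC13 followed at 2261. The testis genes H2AC1 and H2BC1 were near 0, at 0 to 1 and 0 to 4 reads per library.

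H3 and H4 form the central tetramer. H4C14, shared with H4C15, had the highest level of all members, 7263 and 7745 in siControl, 7963 and 7771 in siTARG1, 5741 and 6026 in RACK1-WT, and 5737 and 6091 in RACK1-Mut. H4C5 (2369), H4C3 (1756) and H4C11 (1753) came next, and the lowest H4 gene, H4C4, averaged 6.17. H3C14, shared with H3C15, led H3 at 4700, before H3C13 (2458), H3C2 (1992) and H3-7 (1687), and H3C12 closed the list at 11.1. Among H1, H3 and H4 genes with at least 90% distinct 30-mers, H1-2, H3C2 and H4C5 had the highest levels of their types.

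All 55 members together took 3.15% and 3.30% of coding counts in siControl, 3.35% and 3.17% in siTARG1, 2.89% and 3.26% in RACK1-WT, and 2.97% and 3.07% in RACK1-Mut. With the identical pairs entered once, the shares were 2.54% to 2.89%. With all members entered, H3 took the largest part in 8 of 8 libraries, whereas with the pairs entered once H2B did, in 8 of 8. H1 took the smallest part in 8 of 8 either way. Entering the pairs once does not remove other shared footprints: H2BC18 and H2BC21 share 55.9% of their coding stretches of footprint length. With the pairs once, H2B held 0.722% against 0.699% for H3 in the second RACK1-WT library. In the first siTARG1 library H2B held 0.829% against 0.665%. How far shared copies set the order of H2B and H3 was not tested. Per kb and with identical pairs entered once, summed H1 density was 0.258 to 0.293 of the mean over the 4 core types in the siRNA experiment and 0.383 to 0.411 in the RACK1 experiment. The H1 genes were distinct in at least 97.8% of such stretches, whereas the core types still include shared copies. The part of that sharing in the H1 ratio was not tested. The experiments differ in cells, treatment and library set, which cannot be told apart, and no test was made between them. The same holds for H2BC26, at 1094 ± 84.1 in siControl and 687 ± 60.6 in RACK1-WT, and for H4C14, at 7504 ± 341 and 5883 ± 201 (SD, n = 2).

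**Figure D2:**
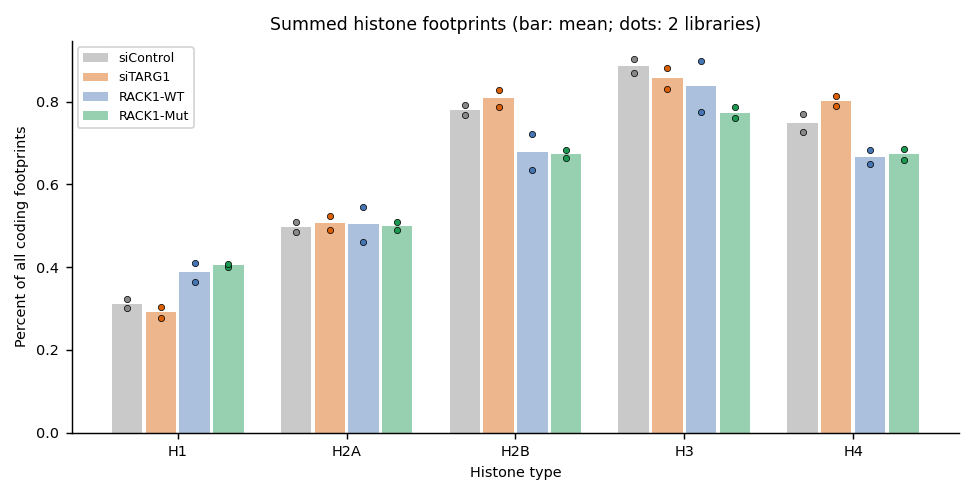
Summed coding footprints of each histone type as a percentage of all coding footprints, by group. Bars are means and dots are the 2 libraries of a group. H1 lies near 0.3% in the siRNA experiment and near 0.4% in the RACK1 experiment, and H3 has the largest share in all 4 groups with identical pairs entered at both genes, as plotted here.

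The siTARG1 comparison asks whether histone footprints change when the hydrolase that removes mono-ADP-ribose is depleted. Of 52 members tested with DESeq2, 6 were called at an adjusted p under 0.05, all lower in siTARG1: the linker histone H1-3, the H2A gene H2AC11, and the H3 genes H3C10, H3C8, H3C1 and H3C11. That is 11.5% of members, where 16.4% of all 12056 regions were called in either direction while 9.19% were called lower and 7.18% higher, so the share is close to the background. A total of 40 members had a negative and 12 a positive log2 fold change, with a median of -0.11, beside 0.00 over all regions tested. These signs hold for size factors, and for some genes near 0 the sign turned when counts were scaled to all coding counts. At an unadjusted p under 0.05, 14 members passed, beside 26% of all regions. By edgeR's quasi-likelihood test 13 members were called (28.8% of all regions were), 12 lower and 1 higher, and they included the 6.

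H1-3 (chr6:26234440-26235215, minus strand), one of the somatic linker histones, showed the strongest of these differences. Normalized counts were 1671 and 1882 in siControl and 1169 and 1127 in siTARG1, so both siTARG1 libraries lay well below both controls. The log2 fold change was -0.63 ± 0.0947 (SE, n = 2), or 64.7% of the control level, with a DESeq2 adjusted p of 1.84e-09. H1-5 had normalized counts of 152 and 120 against 75.7 and 105, a log2 fold change of -0.61 ± 0.281 that missed the threshold (DESeq2 adjusted p = 0.126; edgeR 0.0128). The abundant linker histones differed little: H1-2 had -0.11 ± 0.069 and H1-4 -0.08 ± 0.08, neither called. All 4 linker genes tested thus had a negative sign, with 1 called.

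Every one of the 13 tested H3 genes had a negative log2 fold change with size factors, and 4 passed the test. In CPM per kb, H3C13 rose from a mean of 2590 in siControl to 2610 in siTARG1 and H3C2 from 1794 to 1815. The other tested H3 genes were lower on that scale too, H3C14/H3C15 barely so (5097 and 5095). H3C10 (chr6:27777829-27779078, plus strand) had 2094 and 2191 normalized counts in siControl and 1823 and 1527 in siTARG1, a log2 fold change of -0.35 ± 0.095 (DESeq2 adjusted p = 0.00249). H3C8 (chr6:26271146-26271641, minus strand) had 1564 and 1736 against 1383 and 1363, or -0.26 ± 0.0914 (0.027). The groups of both genes stood apart without overlap. H3C1 (chr6:26020679-26021186, plus strand) had 676 and 657 against 543 and 477, or -0.38 ± 0.128 (adjusted p = 0.02 by DESeq2). H3C11 (chr6:27839623-27840124, minus strand), the lowest of the 4, had 292 and 285 against 201 and 184, or -0.58 ± 0.185 (adjusted p = 0.0136 by DESeq2). The most heavily footprinted H3 genes moved less: H3C14/H3C15 had -0.07 ± 0.0634, H3C13 -0.06 ± 0.0676 and H3C2 -0.05 ± 0.0838, none called. H3C7 lay just outside the threshold, at -0.20 ± 0.0758 (adjusted p = 0.0541 by DESeq2).

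Of 12 H2A genes, 1 was called. H2AC11 (chr6:27100822-27101314, plus strand) had 1677 and 1821 normalized counts in siControl and 1442 and 1396 in siTARG1, a log2 fold change of -0.30 ± 0.0888 (DESeq2 adjusted p = 0.00683). Next to it in level, H2AC13 had 0.00 ± 0.0967 and H2AC17 -0.18 ± 0.0866 (adjusted p = 0.146 by DESeq2, 0.0499 by edgeR). In all, 10 of the 12 H2A genes had a negative sign, and edgeR called 3 of them lower (H2AC11, H2AC12 and H2AC17). Of these 10, H2AC13 (1286 in siControl and 1347 in siTARG1), H2AC14 (1095 and 1135) and H2AC25 (265 and 271) were higher in mean CPM per kb. The rest were lower on that scale too. H2AC20, the leading H2A gene, had 0.09 ± 0.0709, and H2AC21 was the one member that edgeR called higher (1539 and 1807 against 1942 and 1913, log2 fold change 0.21 ± 0.0933 by DESeq2, adjusted p = 0.116 by DESeq2 and 0.0375 by edgeR). None of 11 H2B genes was called by DESeq2. H2BC12 had -0.06 ± 0.0628, H2BC21 0.10 ± 0.0661, H2BC18 0.08 ± 0.0659 and H2BC13 -0.11 ± 0.0705, and by unadjusted p 2 of the 11 passed 0.05 (edgeR called 1, H2BC9, named here after its values were seen).

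H4 genes were divided in sign. Of 12 H4 genes tested, 6 had a positive and 6 a negative log2 fold change and none was called by DESeq2 (1 at an unadjusted p under 0.05; edgeR called 1, H4C1, at -0.28 ± 0.116 by DESeq2). H4C14/H4C15 had 8380 and 8932 in siControl and 8701 and 8576 in siTARG1, which overlap. This pair is 1 measurement counted at both genes among the negative signs, at 0.00, and rose in mean CPM per kb from 7504 to 7867. H4C13, H4C7 and H4C4, also negative, averaged 11.96 to 25.51 normalized counts in siControl. H4C11 and H4C12, both positive, share all their 30-mers. H4C5 had 2391 and 2515 against 2649 and 2682, and H4C3 1659 and 1808 against 1862 and 1853. Both lay higher in siTARG1 in each library, at 0.12 ± 0.0752 and 0.10 ± 0.0852, without passing the test. Groups did not overlap for 35 of the 52 members (67.3%), while this held for 62.6% of all regions tested.

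**Figure D3:**
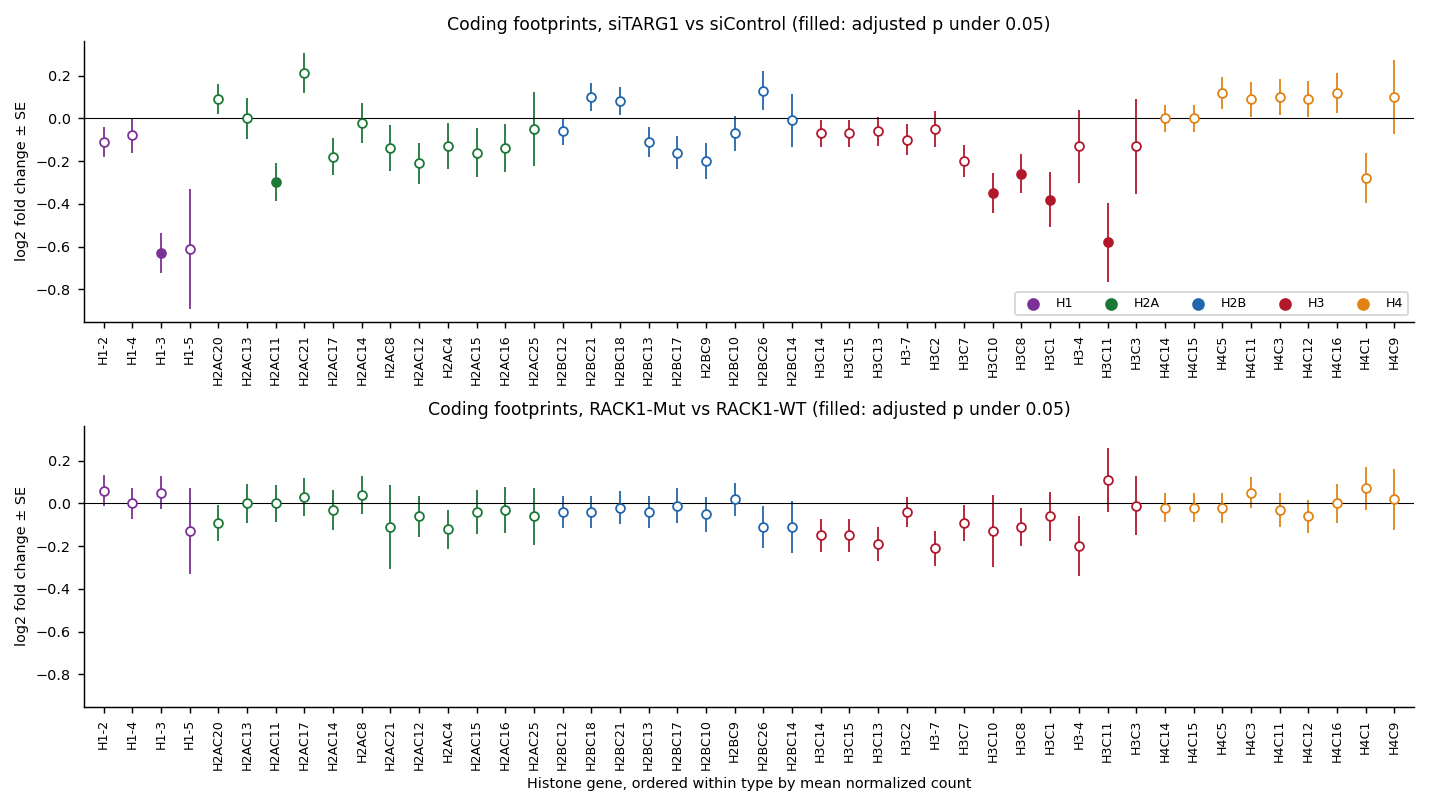
DESeq2 log2 fold change of coding footprints with its standard error for the 46 histone genes whose reference group averaged 100 or more normalized counts, siTARG1 against siControl (top) and RACK1-Mut against RACK1-WT (bottom), coloured by type. Filled points passed an adjusted p of 0.05: 6 genes in the top panel, all below 0, and none in the bottom panel.

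By position, the 6 called genes are all on chromosome 6, where 38 members were tested and 32 had a negative sign. Of 10 tested members of the proximal chromosome 1 cluster, 6 had a negative and 4 a positive sign, with a median log2 fold change of 0.00. Set by sequence, among members with at least 90% distinct 30-mers, 5 of 23 were called (21.7%), and among the others with at least 100 coding bases 1 of 28 (3.57%), all lower, beside 9.19% of all regions called lower. The part of position or of sequence sharing in the calls was not tested.

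**Figure D4:**
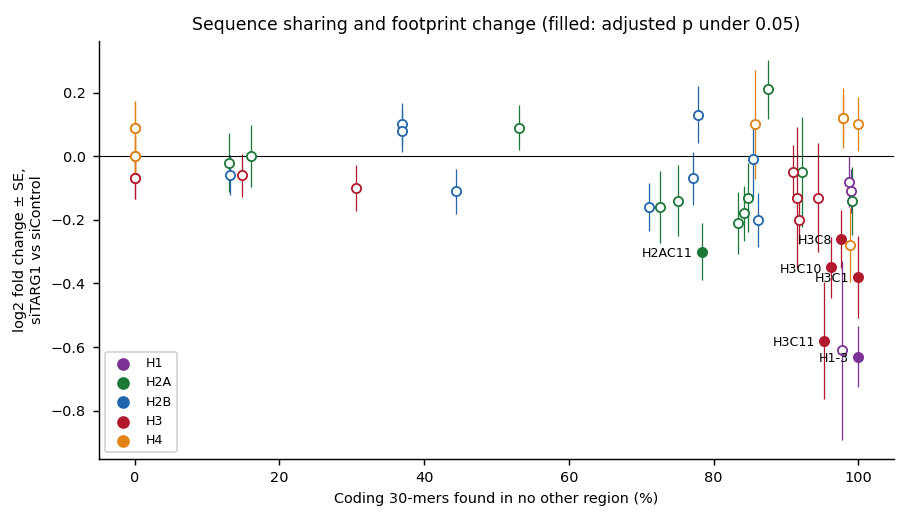
Share of each gene's coding 30-mers found in no other region (horizontal, percent) against its log2 fold change with standard error, siTARG1 against siControl, for histone genes whose siControl libraries averaged 100 or more normalized counts. The 6 named, filled points passed an adjusted p of 0.05; 5 of them lie above 90% and H2AC11 at 78.4%.

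Summed over members, normalized counts were 116384 and 121869 in siControl and 117375 and 112268 in siTARG1, which overlap, and the log2 ratio of the means was -0.05. H1 sums did not overlap (11097 and 11943 against 10634 and 9807, log2 ratio -0.17), nor did H3 sums (32097 and 33327 against 30892 and 29391, -0.12). H2A (-0.05), H2B (-0.02) and H4 (0.03) overlapped. Sums have no test here, since an exact permutation test of 2 against 2 libraries cannot give a two-sided p below 0.333. Scaled to all coding counts instead of size factors, the ratio was 0.02 for all members, -0.10 for H1, 0.03 for H2A, 0.05 for H2B, -0.05 for H3 and 0.10 for H4, so the signs for all members, H2A and H2B turned.

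Of the 6 calls, 4 were made only with all 4 libraries. H1-3 was called without any one of them, with log2 fold changes from -0.72 to -0.54. H3C10 was called without the first siTARG1 library (adjusted p = 0.00577 by DESeq2) but not without the second siTARG1 library (0.368), the first siControl library (0.0734) or the second (0.152). H2AC11, H3C8, H3C1 and H3C11 lost the call without any one of the 4, with adjusted p up to 0.307, 0.506, 0.491 and 0.333 in DESeq2. Calls over all regions fell likewise, to between 4.79% and 6.26%.

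The RACK1 comparison asks the same of cells whose RACK1 cannot be mono-ADP-ribosylated at the mutated sites. None of 54 members tested was called by DESeq2 or by edgeR, while DESeq2 called 10 of 12520 regions (0.0799%). At an unadjusted p under 0.05, 2 members passed in DESeq2 (205 of all regions, 1.64%) and 4 in edgeR (936 of all regions). The median log2 fold change was -0.04, beside 0.00 over all regions tested, and 40 members had a negative and 14 a positive sign. These signs hold for size factors. Some negative members rose in mean CPM per kb, among them H2BC17 (1993 in RACK1-WT and 2008 in RACK1-Mut), H4C5 (2457 and 2466) and H3C3 (184 and 186). Groups did not overlap for 13 members (24.1%), below the 37.6% of all regions.

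The members nearest to a difference were H3 genes of chromosome 1. H3-7 had 3242 and 3712 normalized counts in RACK1-WT and 2968 and 3032 in RACK1-Mut, a log2 fold change of -0.21 ± 0.083 (DESeq2 adjusted p = 1). H3C13 had 4748 and 5477 against 4380 and 4568, or -0.19 ± 0.0812 (DESeq2 adjusted p = 1). H3C14/H3C15 had 8715 and 10039 against 8178 and 8695, or -0.15 ± 0.0786 (DESeq2 adjusted p = 1). These are the 4 members with an unadjusted edgeR p under 0.05. They share much of their coding sequence and are not independent measurements. Of 13 H3 genes, 12 had a negative sign and none was called. All 10 tested members of the proximal chromosome 1 cluster had a negative sign with size factors, with a median of -0.10. The 10 include both identical pairs, each 1 measurement. In mean CPM per kb, H2BC21 (3024 in RACK1-WT and 3037 in RACK1-Mut) and H4C14/H4C15 (5883 and 5914) rose, and the others were lower.

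The other types lay near 0. H1-2 had 9257 and 10443 against 10260 and 10296, and H1-3, which differed in siTARG1, had 2777 and 2990 against 2904 and 3058 (log2 fold change 0.05 ± 0.078). H2AC20 had -0.09 ± 0.0839, H2AC11 0.00 ± 0.0883, H2BC12 -0.04 ± 0.077, H2BC21 -0.02 ± 0.0771, H4C14/H4C15 -0.02 ± 0.0669, H4C5 -0.02 ± 0.0694 and H4C3 0.05 ± 0.0727, all with an adjusted p of 1 in DESeq2. For the H3 genes called in siTARG1, H3C10 had -0.13 ± 0.169, H3C8 -0.11 ± 0.0876, H3C1 -0.06 ± 0.114 and H3C11 0.11 ± 0.15 here. 

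Summed over members, RACK1-WT had 147340 and 164456 normalized counts and RACK1-Mut 148122 and 153827, a log2 ratio of -0.05. H3 was the one type whose sums did not overlap (39578 and 45278 against 37867 and 39378, -0.14), and without a library its ratio ran from -0.23 to -0.04. The ratios of the others were near 0, with H1 at 0.04, H2A and H2B at -0.03 and H4 at -0.01. The first RACK1-WT library carried less of every type than the second, and without it the ratio over all members was -0.12, against 0.04 without the second.

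Replication-independent variants were measured from other genes of the same cells. H3-3A and H3-3B, which encode H3.3, had mean levels of 4464 and 1663 CPM per kb in siControl, and H2AZ1 had 1924. In siTARG1 against siControl, 5 of 11 variants were called lower (9.19% of all regions were) and none higher, among them H2AZ2 (658 and 751 normalized counts against 410 and 491, log2 fold change -0.65 ± 0.138), H2AJ (-0.57 ± 0.18), H2AX (-0.28 ± 0.104) and H3-3A (-0.21 ± 0.0689), with DESeq2 adjusted p from 5.56e-05 to 0.0453. H3-3B had 0.00 ± 0.0755, H2AZ1 0.06 ± 0.0742, H1-10 -0.15 ± 0.105, MACROH2A1 -0.12 ± 0.107 and CENPA, the centromeric H3, -0.99 ± 0.493 on counts of 18.3 to 46.5, none called by DESeq2. The median over the 11 was -0.21. Of the 4 fits that each leave out a library, H2AX was called in 0, H2AJ and H3-3A in 1 and H2AZ2 in 2. In RACK1-Mut no variant was called by DESeq2 or edgeR (1 at an unadjusted DESeq2 p under 0.05), with 5 positive and 6 negative signs.

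Factors that make histone mRNA were described from lists, whose counts below stand beside 7.18% of all regions called higher and 9.19% called lower in siTARG1. SLBP, the stem-loop binding protein, had 217 and 218 normalized counts in siControl and 276 and 274 in siTARG1, a log2 fold change of 0.34 ± 0.181 (DESeq2 adjusted p = 0.207; edgeR 0.0482). Of 27 tested genes for histone pre-mRNA 3′ end processing and turnover, DESeq2 called 4 lower and none higher. They were CPSF2 (550 and 483 against 310 and 306, -0.75 ± 0.149), CSTF2 (-0.63 ± 0.177) and the Sm proteins SNRPE (574 and 654 against 317 and 313, -0.96 ± 0.143) and SNRPF (-0.45 ± 0.164). The median over the list was -0.10. By edgeR 11 of the 27 were called, beside 28.8% of all regions, and they include SLBP, CSTF3 and ERI1, which were higher. SNRPE was called without any one library, CPSF2 without any but the first siControl library, and CSTF2 and SNRPF only with all 4. CPSF2 and CSTF2 also serve ordinary polyadenylation, and the Sm proteins the spliceosome. The U7 snRNP proteins LSM10 and LSM11 and its partner ZNF473 had 6.0 to 42.5 normalized counts per library and were not called. Of 12 genes for histone gene transcription, CREBBP, a general coactivator, was called higher (379 and 415 against 623 and 627, 0.66 ± 0.133, but not without the first siControl library), while NPAT (-0.06 ± 0.285) and CASP8AP2 (-0.25 ± 0.275) were not called. In RACK1-Mut no gene of these lists was called by DESeq2 or edgeR, and 0 passed an unadjusted DESeq2 p of 0.05. SLBP had -0.12 ± 0.137 there and NPAT 0.26 ± 0.25.

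Chaperones carry new histones to DNA. In siTARG1, 6 of 29 were called higher and 1 lower, beside 7.18% and 9.19% of all regions. CHAF1A, of the replication-coupled assembly factor CAF-1, had 75.6 and 95.4 against 152 and 143 (0.80 ± 0.266), and NASP, which holds soluble H3 and H4, had 1474 and 1552 against 1880 and 1742 (0.26 ± 0.0878). HAT1, which acetylates new H4, had 0.60 ± 0.148, NAP1L1 0.46 ± 0.0953, SPTY2D1 0.89 ± 0.207 and NCL 0.26 ± 0.0734. ANP32E, which removes H2A.Z, was lower at -0.90 ± 0.172 (DESeq2 adjusted p = 4.22e-06). The median over the list was 0.07. ANP32E was called without any one library, whereas CHAF1A, NASP and HAT1 were called only with all 4. In RACK1-Mut 0 of 29 were called by either tool (1 at an unadjusted DESeq2 p under 0.05), with a median of -0.04.

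S phase genes mostly had positive and G2 and M phase genes mostly negative signs in siTARG1. Of 33 S phase genes, 7 were called higher (7.18% of all regions were), among them MCM3 (628 and 467 against 1183 and 1195, 1.11 ± 0.13), a subunit of the replicative helicase, PCNA (505 and 600 against 729 and 698, 0.37 ± 0.128), TK1 (0.35 ± 0.0978) and CLSPN (0.69 ± 0.202). RRM2, a subunit of ribonucleotide reductase (-0.46 ± 0.0921), and RPA2 (-0.85 ± 0.17) were called lower. The list's median was 0.24, with 25 genes positive and 8 negative. Of 30 G2 and M phase genes, 10 were called lower (9.19% of all regions were) and none higher, among them CCNB1 (1513 and 1475 against 1123 and 1035, -0.47 ± 0.0943) and MKI67 (881 and 824 against 504 and 521, -0.74 ± 0.118), with a median of -0.15. Without a library, 3 S phase genes (MCM3, RRM2 and RPA2) and 2 G2 and M phase genes (MKI67 and ANLN) were called in every fit, whereas PCNA, TK1 and CLSPN were called only with all 4. These values stand beside the histone median of -0.11, and the part of cell cycle position in the histone values was not tested. In RACK1-Mut, none of either list was called by DESeq2 or edgeR (0 at an unadjusted DESeq2 p under 0.05). The S phase list had 31 negative and 2 positive signs with a median of -0.09, and the G2 and M phase list a median of 0.01.

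**Figure D5:**
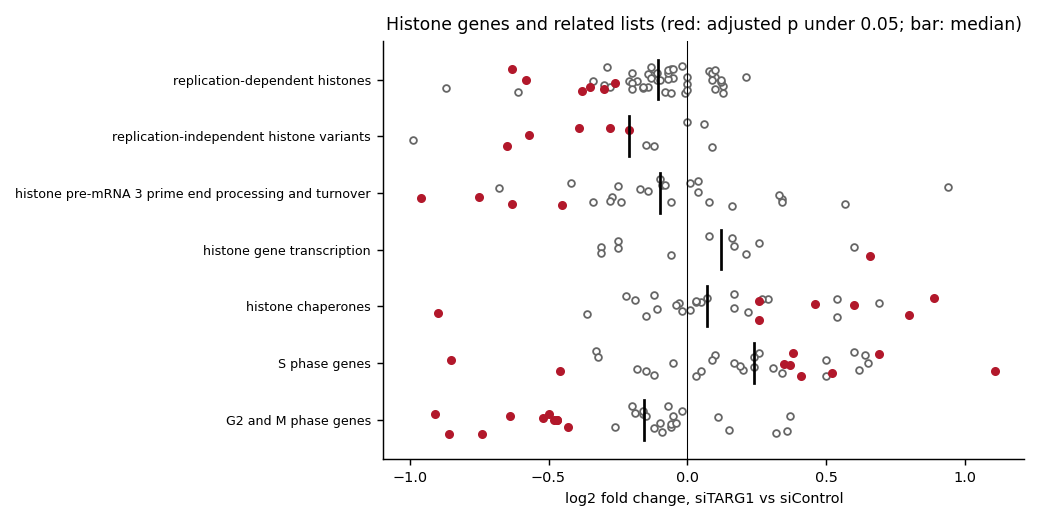
DESeq2 log2 fold changes in siTARG1 against siControl for the histone genes tested and for 6 lists of related genes. Each point is a gene, red points passed an adjusted p of 0.05, and black bars are list medians: -0.11 for replication-dependent histones, -0.21 for variants, 0.24 for S phase genes and -0.15 for G2 and M phase genes.

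Footprints outside the coding sequence were few. Among 20 members with a counted 5′ UTR, 189 to 458 reads per library lay there, or 0.309% to 0.497% of their 5′ UTR and coding reads, beside 2.26% to 2.85% in 17530 other regions. Per base, 5′ UTR density was 1.29% to 2.09% of coding density in histone genes and 12.8% to 16.2% in other regions. It was lower in 8 of 8 libraries (exact paired permutation test over libraries, two-sided p = 0.00781, the smallest 8 libraries can give). The libraries share the same genes and annotation, so this test covers their agreement and not a difference between sets of genes. Annotated length matters here too: H4C9 had 721 bases of 5′ UTR with 1 read over the 8 libraries and H3C8 431 bases with 44. H3C10 (10 bases) and H2AC13 (11 bases) had 0 reads. In the 3′ UTR, 23 members held 154 to 229 reads per library, and density was 0.103% to 0.142% of coding density beside 0.627% to 1.94% elsewhere. That figure depends on annotated length, since 9 of the 23 have 3′ UTRs of 1000 bases or more, far past the hairpin. In the 8 members with a 3′ UTR under 150 bases, density was 1.73% to 2.66%, from 34 to 110 reads, above other regions in 7 of 8 libraries. Against all other regions, the direction for the 3′ UTR thus differed between the full and the short set. Other regions with a short 3′ UTR were not set apart, so the part of length was not tested. H2AC8 alone held 32 of the 57 reads of the short set in the first siControl library and 42 of 110 in the second RACK1-WT library. The 5′ UTR share of histone genes was 0.497% and 0.395% in siControl and 0.331% and 0.325% in siTARG1, which do not overlap, and 0.309% and 0.417% in RACK1-WT against 0.319% and 0.421% in RACK1-Mut, which do. The 3′ UTR share was 0.22% and 0.25% in siControl and 0.205% and 0.27% in siTARG1, which overlap, and 0.205% and 0.196% in RACK1-WT against 0.232% and 0.228% in RACK1-Mut, which do not. These differences were not tested, since the exact permutation test of 2 libraries against 2 gives no p below 0.333.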

How the data were processed

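The samples were 8 Ribo-seq libraries, grouped by their titles. The deposited files hold, for each region, footprint counts (whole numbers), which the authors made with Plastid from reads of 26 to 36 nt after rRNA removal with Bowtie 1.1.2 and alignment to transcripts with TopHat2 2.1.1 (versions per the submitters' processing notes), on hg19 (GRCh37) with GENCODE 24. Per the file headers, each read was assigned to a base 14 nt inward of its 5′ end. The study's methods give an offset counted from the other end, which was not resolved and touches chiefly reads at the edges of coding and UTR intervals. The deposited tables are labelled as UMI counts, but how reads sharing an identifier were treated is not given in the sources used here. The deposited RPKM columns and region lengths were made by the authors too; RPKM was not used.

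Regions were named through GENCODE 44 lifted to GRCh37 (19612 of 20165 matched). DESeq2 1.42.0 in R 4.3.3 was fitted to the coding counts of the 4 libraries of each comparison, for regions with at least 10 summed counts, with the Wald test and Benjamini-Hochberg adjustment over all regions. edgeR 4.0.16 and the alternatives given at the end were run beside it, and the fits were tested on simulated data. Coding counts per library were 3100947 to 6604190. The p-values of DESeq2 and edgeR set the difference between groups against a modelled variance. That variance was estimated from 2 libraries per group, with information pooled over all regions tested. The genes named are members called in either comparison, the 4 with the highest level of each type, 15 fixed factors and variants, and called members of the lists. This gene family and the lists were chosen with earlier results of these data known, although the rule for members is by name. Values of 1 listed gene are not reported here.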

Additional observations from a re-analysis of the deposited data

How the results depend on the processing

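The count of members called in RACK1-Mut was 0 under every alternative run. In siTARG1 it was 6, against 13 with edgeR (the 6 among them), 9 in a fit of all 8 libraries, 9 at an adjusted p under 0.1, 7 without the count filter, 2 with the replicate block (H1-3 and H3C10), 0 with a log2 fold change of 1 or more in either direction also asked for, and 1 to 2 without a library. The block also lowered calls over all regions, to 1125 (9.33%). The correlation of same-numbered deviations was 0.0832 in the RACK1 comparison and 0.0307 in the siTARG1 comparison. With 2 pairs each, this cannot settle whether replicate numbers pair the libraries. The cause of these differences was not tested, except that leaving out a library leaves fewer samples.

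Scaled to all coding counts, summed footprints in siTARG1 gave log2 ratios of 0.02 over all members, -0.10 for H1, 0.03 for H2A, 0.05 for H2B, -0.05 for H3 and 0.10 for H4. Over members with at least 90% unique 30-mers, an alternative chosen after seeing the data, the ratio was -0.13. Without a library, RACK1-Mut sums ran from -0.04 to 0.12 for H1 and from -0.23 to -0.04 for H3.

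Other sign changes were of values near 0. In RACK1-Mut, H1-4 had -0.0027 on exon counts and -0.00436 in the fit of all 8 libraries, H2AC13 -0.0035 in that fit, and H2AC11 0.00195 on exon counts and 0.0019 with the replicate block. In siTARG1, exon counts gave H2AC13 0.01, ZNF473 0.04 and H3-3B -0.02, and H3-3B had -8.15e-05 with edgeR and -7.04e-05 with TMM factors. Of 390 values of named genes under other settings, 366 kept direction and call, 10 turned, 7 lost and 7 gained the call. Without a library, 235 of 312 kept both, 46 turned and 31 lost the call.

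Log2 fold changes in RACK1-Mut whose sign turned without a library ran as follows: H2AC20 -0.19 to 0.03, H2BC21 -0.10 to 0.07, H2BC18 -0.12 to 0.05, H4C14 -0.06 to 0.03, H4C15 -0.06 to 0.03, H1-3 -0.00334 to 0.10, H1-4 -0.07 to 0.08, H1-5 -0.28 to 0.01, H1-2 -0.02 to 0.15, H2BC12 -0.13 to 0.06, H2AC13 -0.11 to 0.12, H2AC11 -0.12 to 0.12, H2AC17 -0.08 to 0.15, H3C10 -0.30 to 0.05, H2BC13 -0.09 to 0.01, H3C1 -0.14 to 0.03, H3C11 -0.04 to 0.25, CASP8AP2 -0.03 to 0.04, LSM11 -0.28 to 0.70, H1-10 -0.19 to 0.15, H2AX -0.20 to 0.15, H2AZ2 -0.05 to 0.14 and H3-3B -0.15 to 0.06. Log2 fold changes in siTARG1 whose sign turned without a library ran as follows: H4C14 -0.06 to 0.04, H4C15 -0.06 to 0.04, H1-4 -0.16 to 0.000435, H2AC13 -0.15 to 0.13, H3C2 -0.16 to 0.05, NPAT -0.26 to 0.13, LSM10 -0.61 to 0.09, ZNF473 -0.30 to 0.08 and H3-3B -0.03 to 0.04.

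Depth limits genes with few footprints: standard errors reached 1.63 for H2BC1, and 17 regions have almost no coding bases in the files. Whether the counts used here were collapsed by identifier is not given in the sources used.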
